A study of Mus musculus with 12 samples.

Results

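Genes of motile cilia and of the ependymal cells that carry them were followed in differentiated neurospheres of a mouse model of Alzheimer's disease. The set held 48 genes, named as regulators or structural parts of motile cilia, and the list was drawn up with earlier results of these data known. Every non-control probe of the arrays whose RefSeq accession belongs to one of these genes was taken. Of the 48 genes, 44 had at least 1 probe (62 probes in all), against 20887 named genes on the arrays. Dnah12, Lrrc23, Ccdc40 and Armc4 had no probe under this rule. Signal was high enough to be tested for 38 genes through 49 probes, where an expressed probe means one that rose well above background for 1 of the compared conditions on 3 or 4 arrays of any comparison. Dnah9, Spag6, Spag16, Spag17, Lrriq1 and Sntn had probes but none that met this condition, and in the comparison of APP_WT with WT their probes were above background on at most 1 of 4 arrays per condition. Spag6 has a close paralogue, Spag6l, so its probes may not tell the 2 apart.

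Neurospheres are floating aggregates of neural stem and progenitor cells. These came from the embryonic telencephalon at day 13, floated for 5 days per the labels, and were differentiated for 7 days without growth factors on a coated surface. All groups came from C57BL/6 embryos. WT neurospheres carried no transgene and received no drug. APP_WT neurospheres came, despite the name, from embryos with the APPswe/PS1dE9 transgenes (a mutated human amyloid precursor protein and a mutated human presenilin 1) and received no drug. BK_APP and HOE_APP neurospheres carried the same transgenes and received 1 µM bradykinin (BK), a peptide that activates the B2 kinin receptor, or 1 µM HOE-140, which blocks that receptor, on days 0, 3 and 6 of differentiation. WT neurospheres treated with either drug were not analysed here, so both drug comparisons lie within the transgenic background. Both transgenes are driven by a prion promoter, which is active in many neural cells and not in ciliated cells alone. Each of 12 two-color Agilent arrays held 1 sample of each of 2 conditions, and 4 arrays were used for each comparison (APP_WT against WT, BK_APP against APP_WT, HOE_APP against APP_WT), with the dyes swapped on 2 of the 4. The methods call the 4 samples of a group independent biological replicates. For HOE_APP the labels name the same treatment in both channels, so the direction of that comparison is likely only. It rests on the label of the first channel. The share of probes well above background lay between 45.2% and 60.1% over the 24 array channels, and the number of arrays limits the precision. The 4 arrays of APP_WT versus WT lay on 1 slide and the other 8 on another, so that slide and comparison cannot be told apart, although every ratio was formed within an array.

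Ependymal cells line the brain ventricles and carry tufts of motile cilia that move the cerebrospinal fluid. A motile cilium has an axoneme, a ring of doublet microtubules around a central pair. Dynein arms on the doublets produce the beat, radial spokes carry signals between the central pair and the arms, and nexin links hold neighbouring doublets together. Tektins and other inner proteins stabilize the tubule wall from within, and assembly factors fold the dynein arms in the cytoplasm before they are carried into the cilium. In cells that make many cilia, multicilin (Mcidas) and its relatives of the geminin family start the amplification of centrioles, and Foxj1 and the RFX factors then switch on the genes of the axoneme. RFX factors bind a DNA motif named the X-box.

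In every class of motile cilia genes at least 1 member was higher in APP_WT than in WT, and none was called lower. At an adjusted p below 0.05 (limma, adjusted over all expressed probes), 33 of the 38 expressed genes were higher and 0 were lower in APP_WT, where 17.0% of the 14327 genes with an expressed probe were higher and 8.03% were lower. The median log2 fold change over the 38 genes was 0.71 (1.64-fold), beside 0.01 over all 14327 genes. It was 0.83, 0.59, 0.74 and 0.77 on arrays 1 to 4, with 36 of 38 genes above 0 on each array. The log2 ratio was above 0 on all 4 arrays for 34 of the 38 genes, beside 20.8% of all genes. Of the 33 genes, 13 were more than 2-fold higher, where 1.31% of all genes (188) were called and over 2-fold higher. The 5 genes that did not pass the test were Rfx3, Mcidas, Hydin, Tekt2 and Dnaaf1. In bulk RNA a larger number of ciliated cells and more RNA of these genes per cell cannot be told apart.

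**Figure D1:**
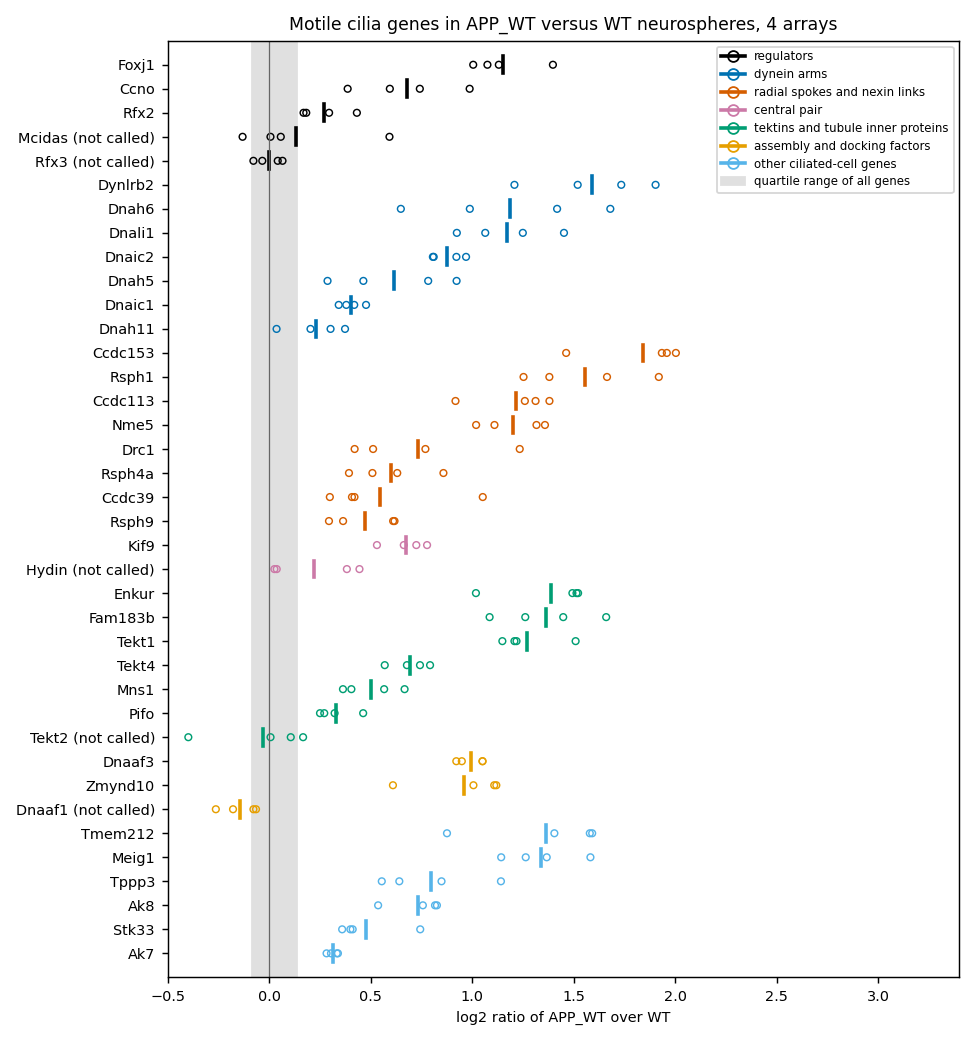
Log2 ratio of APP_WT over WT (horizontal axis) for the 38 expressed motile cilia genes, grouped by class and ordered by size. Open circles are the 4 arrays, thick bars the fitted mean, the grey band the range between the quartiles of all 14327 genes, and genes that did not pass an adjusted p of 0.05 are named as not called, among them Dnaaf1, which was below background in both conditions. The 33 called genes lie to the right of 0 on all 4 arrays, and Ccdc153 is farthest to the right with a mean of 1.84.

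The regulators were uneven, with 3 of 5 higher. Foxj1, the forkhead factor that drives motile ciliogenesis, had a normalized intensity of 1384, 1057, 1163 and 933 in WT and of 2915, 2314, 2333 and 2458 in APP_WT on arrays 1 to 4. The lowest APP_WT value was above the highest WT value. Its log2 fold change was 1.15 (2.22-fold, SE 0.07, n = 4, adjusted p = 1.19e-06). Ccno (cyclin O), which acts in centriole amplification, had log2 ratios of 0.74, 0.39, 0.59 and 0.99 on the 4 arrays and a log2 fold change of 0.68 (1.60-fold, SE 0.08, adjusted p = 0.000148). Rfx2 had smaller ratios of 0.17, 0.18, 0.30 and 0.43 and a log2 fold change of 0.27 (1.21-fold, SE 0.07, adjusted p = 0.0269). Its intensity was 103 to 142 in WT and 117 to 175 in APP_WT, so the groups overlapped, and it lost its call when any 1 of the 4 arrays was left out (adjusted p 0.0587 to 0.125). Rfx3 had ratios of 0.07, −0.03, −0.08 and 0.04, on both sides of 0, and a log2 fold change of −0.00 (SE 0.05, adjusted p = 0.993, 95% interval −0.11 to 0.11). Its other 2 expressed probes gave −0.02 and 0.04. Mcidas had a normalized intensity of 5512 to 6431 in WT and of 5873 to 8312 in APP_WT, with ratios of −0.13, 0.01, 0.59 and 0.06. Array 3 stood above the others, and the mean of 0.13 did not pass the test (SE 0.09, adjusted p = 0.331, 95% interval −0.06 to 0.32).

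**Figure D2:**
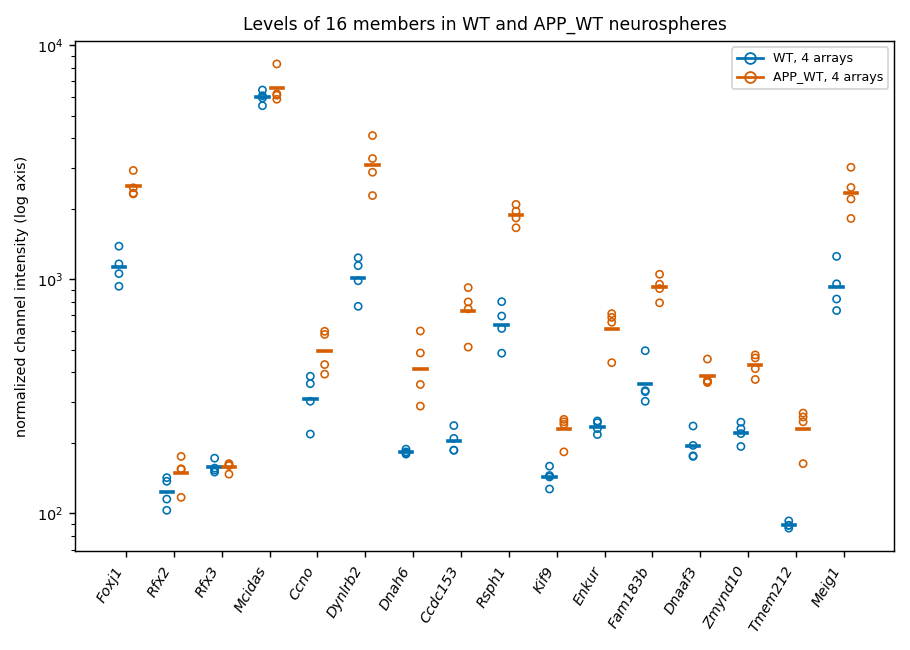
Normalized channel intensity (log axis) of 16 members in WT (blue) and APP_WT (orange) neurospheres, with the 4 arrays as circles and their geometric mean as a bar. WT and APP_WT lie apart for 13 of the 16, and overlap for Rfx2, Rfx3 and Mcidas. Apart from the regulators, the genes shown were picked as the largest called changes of their classes in this comparison, which favors separation. Over all 38 expressed genes, 28 lay apart with APP_WT higher, beside 10.5% of all genes. Intensities can be compared between conditions within a gene and not between genes.

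All 7 expressed genes of the dynein arms were higher in APP_WT, with log2 fold changes from 0.23 to 1.59 and a median of 0.88. Dynlrb2, a roadblock light chain of dyneins, had an intensity of 1235, 985, 1143 and 766 in WT and of 4109, 2277, 3278 and 2864 in APP_WT. The groups did not overlap, and the log2 fold change was 1.59 (3.01-fold, SE 0.10, adjusted p = 2.75e-06). Dnah6, an inner arm heavy chain, had intensities of 179 to 188 in WT and of 355, 287, 601 and 484 in APP_WT. It was higher on every array, by log2 ratios of 0.99, 0.65, 1.68 and 1.42, with the 2 largest on the arrays where APP_WT was labeled with Cy5, and its log2 fold change was 1.18 (2.27-fold, SE 0.10, adjusted p = 2.24e-05). The light intermediate chain Dnali1 (1.17), the outer arm intermediate chains Dnaic2 (0.88) and Dnaic1 (0.40) and the outer arm heavy chain Dnah5 (0.61, or 1.53-fold, which was 2.15-fold with the scanner software's processed signals) followed on the log2 fold change scale. Dnah11, another outer arm heavy chain, had the smallest change (0.23, SE 0.06, adjusted p = 0.018, or 0.44 with processed signals) and lost its call without array 1, 3 or 4, with adjusted p-values of 0.0888, 0.0503 and 0.0859.

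All 8 expressed genes of radial spokes and nexin links were higher, and their median of 0.97 (log2 fold change) was the highest of the 7 classes. Ccdc153, a part of the nexin-dynein regulatory complex, had the largest change of all members. Its intensity was 237, 186, 209 and 186 in WT and 921, 513, 800 and 747 in APP_WT, without overlap, and the log2 fold change was 1.84 (3.58-fold, SE 0.11, adjusted p = 2.14e-06). Rsph1, a radial spoke head protein, had log2 ratios of 1.38, 1.25, 1.66 and 1.92, high on all 4 arrays, and a log2 fold change of 1.55 (2.94-fold, SE 0.06, adjusted p = 9.34e-08). Its second probe gave 0.92. The other spoke genes Nme5, Rsph4a and Rsph9 had log2 fold changes of 1.20, 0.60 and 0.47, the coiled-coil protein gene Ccdc113 of 1.22, and the nexin link gene Drc1 of 0.73. Ccdc39, which with its partner Ccdc40 sets the spacing of arms and spokes along the doublet, had a log2 fold change of 0.54 that rested partly on array 1 (1.05, beside 0.30 to 0.42 on the other arrays).

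Of the central pair genes only Kif9 and Hydin could be measured. Kif9, a kinesin of the central pair, had log2 ratios of 0.78, 0.53, 0.66 and 0.72 and a log2 fold change of 0.67 (1.60-fold, SE 0.06, adjusted p = 2.44e-05). Its other 3 expressed probes gave 0.42, 0.52 and 0.65, all called. Hydin, the gene of a large projection of the central pair, had ratios of 0.04, 0.03, 0.44 and 0.38, near 0 on the arrays with APP_WT in Cy3 and higher on those with APP_WT in Cy5. Its mean of 0.22 (SE 0.07) had an adjusted p of 0.0627, and of 0.0141 in the fit with the replicate number as a block.

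Tektins and tubule inner proteins were higher in 6 of 7 cases. Enkur (enkurin) had an intensity of 217 to 248 in WT and of 713, 440, 687 and 655 in APP_WT, without overlap, and a log2 fold change of 1.39 (2.62-fold, SE 0.10, adjusted p = 4.55e-06). Fam183b, an axonemal protein gene, had log2 ratios of 1.09, 1.26, 1.45 and 1.66, and a log2 fold change of 1.36 (2.57-fold, SE 0.10, adjusted p = 8.43e-06). The tektins did not move alike. Tekt1 had a log2 fold change of 1.27 and Tekt4 of 0.70, both called, and Tekt2 had ratios of 0.17, 0.01, 0.11 and −0.40 that crossed 0, with a mean of −0.03 (SE 0.09, adjusted p = 0.852). Mns1 (0.50) and Pifo (0.33) were called with smaller log2 fold changes.

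Among assembly and docking factors, Dnaaf3 and Zmynd10, which take part in the assembly of dynein arms, were both close to 2-fold higher. Dnaaf3 had an intensity of 236, 175, 195 and 176 in WT and of 456, 362, 369 and 365 in APP_WT, with a log2 fold change of 0.99 (1.99-fold, SE 0.07, adjusted p = 4.62e-06). Zmynd10 had log2 ratios of 1.01, 0.61, 1.12 and 1.11 and a log2 fold change of 0.96 (1.95-fold, SE 0.09, adjusted p = 2.76e-05). Both genes had groups that did not overlap. The probe of Dnaaf1 was not well above background on any array in either condition, so no fold is given, and it entered the test through the HOE_APP arrays.

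All 6 other expressed genes of ciliated cells were higher. Tmem212 had an intensity of 86.4 to 92.8 in WT, where it was above background on 1 of 4 arrays, and of 258, 163, 246 and 268 in APP_WT. The fitted log2 fold change was 1.36 (SE 0.12, adjusted p = 2.35e-05) and 3.14 with the processed signals of the scanner software. Meig1 had an intensity of 735 to 1252 in WT and of 1818 to 3007 in APP_WT, without overlap, and a log2 fold change of 1.34 (2.53-fold, SE 0.10, adjusted p = 5.85e-06). A second Meig1 probe also gave 1.34. Tppp3, which promotes tubulin polymerization, the adenylate kinase gene Ak8 and the kinase gene Stk33 had log2 fold changes of 0.80, 0.73 and 0.48, and Ak8 had one of 1.25 with processed signals. Ak7, another adenylate kinase gene, was not well above background on any WT array and above it on 2 of 4 APP_WT arrays. Its fitted log2 fold change was 0.31 (1.24-fold, 95% interval 0.184 to 0.445, adjusted p = 0.00386), against a WT level at background. It entered the test through the BK_APP and HOE_APP channels. Over all classes, the 4 APP_WT intensities lay above the 4 WT intensities without overlap for 28 of 38 genes, beside 10.5% of all genes.

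Promoter sequences were taken from RefSeq (GRCm38.p6), as windows from 250 bases before to 50 bases after the start of a gene. The build of the array design is another one, and the table was matched by gene symbol. Of the 48 genes, 40 had a window, 47 windows in all, and windows of 1 gene can overlap. Each window was searched on both strands. The palindromic X-box in its long form, GTTNCC and GGNAAC with 2 free bases between them, was found in 1 of the 47 windows (2.13%), that of Pifo, and in 0.451% of all 32851 windows. The forkhead motif TGTTTAC was found in 2 of 47 (4.26%), those of Ak7 and Sntn, and in 3.65% of all windows. After these counts had been seen, the shorter motif GTTGCC was searched, which overlaps the long form in Pifo. It was found in 26 of 47 windows (55.3%) and in 12.5% of all windows. It was found in the windows of 15 of the 27 called genes that had one, and also in those of Rfx3, Mcidas, Hydin and Tekt2, which were not called. The windows of Lrrc23, Lrriq1, Sntn, Spag6 and Spag16, which could not be tested for expression, held it too. Both relaxed long forms that were also tried, with GGNNAC or NGNAAC in place of GGNAAC, were found in 7 and 5 of the 47 windows, beside 1.29% and 0.804% of all windows. A match describes letters in the window and is not a bound site.

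The 250 bases before the start are shown for Pifo, which holds the long form, and for Ccdc153, Dynlrb2 and Enkur. These last had the largest log2 fold changes of their classes and hold the shorter motif. Kif9, with the largest change of the central pair class, also holds it and is not shown. Dnaaf3 and Tmem212 had the largest changes among assembly factors and other genes of ciliated cells, and their windows do not hold it. Foxj1, with the largest change of the regulators, had no window. The sequences run 5′ to 3′ on the strand of the gene, with the X-box of Pifo and the shorter motifs of the other genes shown in capitals. The windows are chr3:106001498-106001747 (minus strand) for Pifo, chr9:44240427-44240676 (plus strand) for Ccdc153, chr8:116504765-116505014 (plus strand) for Dynlrb2 and chr2:21205366-21205615 (minus strand) for Enkur. The capitals begin 20 bases before the start in Pifo, 152 in Ccdc153, 51 in Dynlrb2 and 34 in Enkur.
Pifo: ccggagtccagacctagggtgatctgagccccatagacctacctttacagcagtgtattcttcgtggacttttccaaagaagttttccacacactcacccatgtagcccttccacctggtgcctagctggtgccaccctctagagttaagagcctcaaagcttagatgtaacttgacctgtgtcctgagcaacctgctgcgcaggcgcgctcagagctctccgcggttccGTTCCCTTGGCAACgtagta
Ccdc153: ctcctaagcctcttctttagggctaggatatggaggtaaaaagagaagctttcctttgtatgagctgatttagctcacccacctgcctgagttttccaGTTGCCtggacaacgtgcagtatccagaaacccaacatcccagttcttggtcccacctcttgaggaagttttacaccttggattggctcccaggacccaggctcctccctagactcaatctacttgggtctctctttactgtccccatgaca
Dynlrb2: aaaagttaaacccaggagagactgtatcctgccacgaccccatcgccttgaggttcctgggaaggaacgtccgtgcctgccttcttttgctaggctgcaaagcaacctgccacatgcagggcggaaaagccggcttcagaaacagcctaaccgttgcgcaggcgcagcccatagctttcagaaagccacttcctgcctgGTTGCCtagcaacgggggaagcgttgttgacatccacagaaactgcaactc
Enkur: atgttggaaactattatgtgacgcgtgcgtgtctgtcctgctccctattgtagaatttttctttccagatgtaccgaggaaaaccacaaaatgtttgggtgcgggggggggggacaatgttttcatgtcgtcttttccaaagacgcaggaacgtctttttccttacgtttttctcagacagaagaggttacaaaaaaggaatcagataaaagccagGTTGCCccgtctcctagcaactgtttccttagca

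Further lists place these genes beside other parts of the ciliary programme and beside other cells of the culture. Over all 14327 genes, 17.0% were higher and 8.03% were lower in APP_WT. Of 16 genes of the geminin family and of centriole amplification, 15 were expressed, of which 5 were higher and 1 was lower in APP_WT, and the list's median was 0.12 on the log2 scale. The largest changes were those of Deup1 (0.93), which builds the deuterosome where centrioles multiply, of Gmnc (0.84), a geminin relative upstream of multicilin that was above background on 1 of 4 WT arrays, and of Myb (0.64), a factor of early ciliated cells. Of 76 other genes of the motile axoneme, 56 were expressed, 42 were higher and 0 lower, with a median of 0.44. Cfap126, Odf3b and Cfap52 led and were 3.43-fold, 2.84-fold and 2.59-fold higher. Among the called genes, Rsph14 and Ttc25 were above background on 0 of 4 WT and 3 of 4 APP_WT arrays. Cfap44, Cfap65, Cfap206, Dnah7a and Morn3 were so on 1 of 4 and 3 of 4. In this comparison such genes met the signal rule only through APP_WT, where they were higher. Efhc2 and Cdhr3 were called although above background on 0 of 4 WT and 1 of 4 APP_WT arrays. They met the rule only through the drug comparisons. Dim genes without a difference can drop out, so the share called higher depends partly on that rule. Genes of intraflagellar transport and of the primary cilium, which nearly all cells use, were higher in 12 of 40 cases and lower in 0, with a median of 0.12. The largest changes there, of Ift80, Ift172 and Ift22, were 0.36, 0.35 and 0.34. Among 14 ependymal markers that lie outside the cilium, 11 were higher, 1 (Cd24a, −0.30) was lower and the median was 0.80. Rarres2 (1.74), Hdc (1.42) and Mia (1.08) led this list.

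Markers of other cells are set beside the same shares of all genes (17.0% higher and 8.03% lower). A count of 1 in 8 lies near these shares. Choroid plexus markers were higher in 6 of 11 cases (median 0.28), led by Ttr (1.06), Lbp (0.75) and Clic6 (0.65), where Lbp was above background on 1 of 4 WT and 3 of 4 APP_WT arrays. Astrocyte markers were higher in 7 of 9 cases (median 0.43), led by Gjb6 (0.79), Aqp4 (0.73) and Gfap (0.69). Aqp4 and S100b stand in both the ependymal and the astrocyte list. Microglial markers were higher in 11 of 13 cases (median 1.39), led by Cx3cr1 (2.31), Tyrobp (2.22) and Aif1 (2.21). Cx3cr1 was above background on 2 of 4 WT arrays, and Tyrobp, Trem2 and Tmem119 were above background on 1 of 4 WT arrays and on 4 of 4 APP_WT arrays. Neuron markers were higher in 1 (Syt1, 0.43) and lower in 3 of 8 cases, with Nefl at −0.73 and Dcx at −0.54. Neural stem and radial glia markers were higher in 1 and lower in 2 of 8 cases, with Hes5 at −0.63, Nes at 0.55 and Pax6 at −0.16. Oligodendrocyte lineage markers were higher in 1 (Cspg4, 0.32) and lower in 1 (Olig2, −0.21) of 8 cases. The summed processed intensity of the 38 motile cilia genes ranged over arrays from 9755 to 19854 in WT and from 14972 to 37186 in APP_WT, that of the ependymal markers from 56785 to 110239 and from 91739 to 170602, that of the choroid plexus markers from 4112 to 8669 and from 4635 to 13481, that of the astrocyte markers from 53745 to 103080 and from 70743 to 143093, and that of the microglial markers from 14233 to 21429 and from 15606 to 34624. These sums were not scaled between arrays, and their ranges do not keep the pairing of WT and APP_WT within an array. Bright arrays and bright probes weigh most in them, so they do not measure the size of a change. The part of these cells in the change of the motile cilia genes was not tested.

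**Figure D3:**
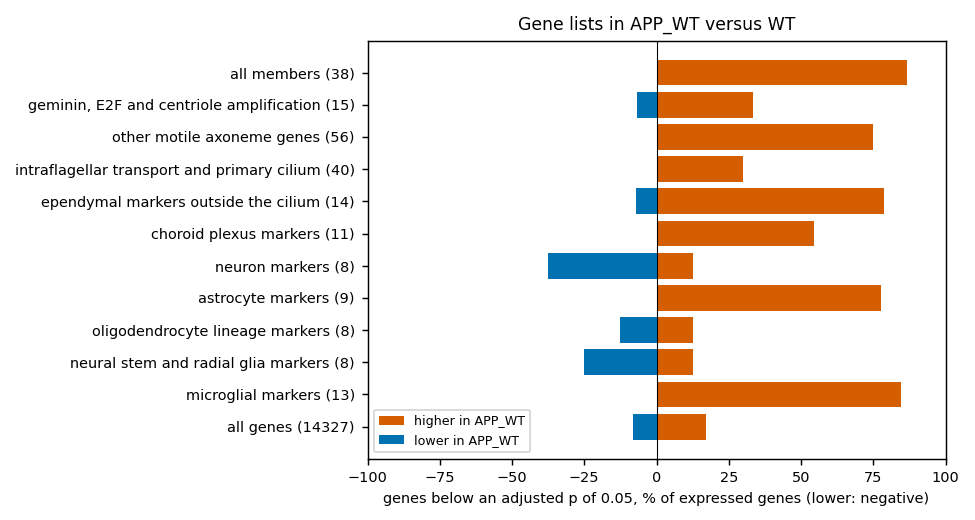
Share of the expressed genes of each list (number in brackets) that were higher (orange) or lower (blue, drawn to the left of 0) in APP_WT than in WT at an adjusted p below 0.05. Motile cilia genes, other axoneme genes, and ependymal, choroid plexus, astrocyte and microglial markers reach far beyond the 17.0% of all genes. Genes of centriole amplification and of intraflagellar transport lie nearer to it.

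No motile cilia gene passed the test with bradykinin. In BK_APP versus APP_WT, 0 of 38 genes passed an adjusted p of 0.05 in limma, where 0% of all genes did. Before adjustment, 0 of 38 had a limma p below 0.05, beside 4.79% of all genes. SAM and rank products together called 0 of the 38. The share of all genes called by both methods is not given here. The smallest unadjusted p was 0.112 (Dnah11, log2 fold change −0.10). The log2 fold changes lay between −0.11 (Mcidas) and 0.11 (Enkur), with a median of 0.02. Foxj1 had ratios of 0.02, 0.07, 0.09 and 0.15, slightly above 0 on all 4 arrays, and a log2 fold change of 0.08 (SE 0.07, adjusted p = 0.967, 95% interval −0.06 to 0.23). Mcidas had ratios of 0.10, 0.16, −0.46 and −0.21, positive on the arrays with BK_APP in Cy5 and negative on the other two. Its mean was −0.11 (SE 0.09, adjusted p = 0.967). Rfx2, Rfx3 and Ccno had log2 fold changes of 0.08, −0.06 and −0.01. The second probe of Rsph4a had a log2 fold change of −0.26 with an unadjusted p of 0.0442, and its brighter probe one of −0.03. Class medians ran from −0.01 in the central pair and the regulators to 0.04 in assembly factors and in other genes of ciliated cells. The 95% interval of every one of the 38 genes stayed within 0.5 of 0 on the log2 scale, and 0.32 was the bound farthest from 0.

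No motile cilia gene passed the test with HOE-140. In HOE_APP versus APP_WT, 0 of 38 genes passed an adjusted p of 0.05 in limma, where 0% of all genes did. Before adjustment, 0 of 38 had a limma p below 0.05, beside 4.91% of all genes. SAM and rank products together called 0 of the 38, again without a share of all genes to set beside it. The log2 fold changes lay between −0.16 (Mcidas) and 0.11 (Ccdc153), with a median of −0.00. Turning the uncertain direction would turn the signs and leave these counts. Rfx3 had the smallest unadjusted p (0.0658), with ratios of −0.10, −0.22, −0.06 and −0.03, below 0 on all 4 arrays, and a log2 fold change of −0.10 (SE 0.05, adjusted p = 0.924, 95% interval −0.21 to 0.01). Mcidas had ratios of 0.06, 0.11, −0.57 and −0.25, split by dye as with bradykinin, and an unadjusted p of 0.0847. Foxj1 had ratios of −0.16, 0.07, 0.02 and 0.04 and a log2 fold change of −0.01 (SE 0.07, 95% interval −0.15 to 0.14). Rfx2 and Ccno had log2 fold changes of 0.06 and −0.05. Class medians ran from −0.05 in the regulators to 0.04 in the central pair. For Rsph9 the fit used 3 arrays, since the spot of array 4 was uneven. The 95% intervals of the 38 genes stayed within 0.5 of 0, and 0.37 was the bound farthest from 0.

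**Figure D4:**
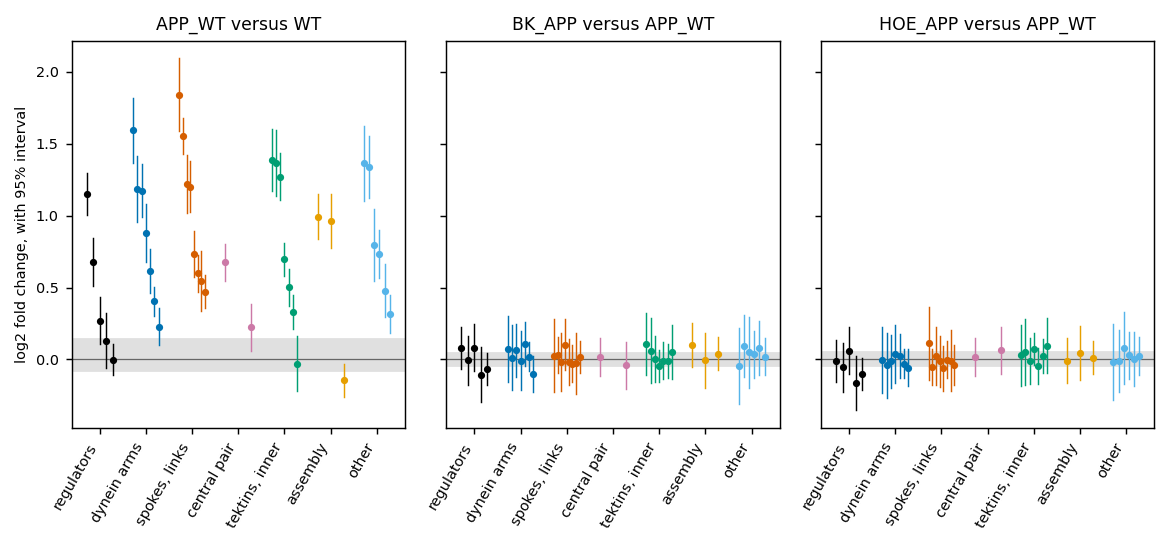
Log2 fold change of each of the 38 genes (points) with its 95% interval (lines) by class in the 3 comparisons, beside the range between the quartiles of all genes (grey band). Values reach 1.84 in APP_WT versus WT and lie between −0.16 and 0.11 in both drug comparisons.

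The difference between the drugs was also tested within the model. In BK_APP minus HOE_APP, 0 of 38 genes passed an adjusted p of 0.05 in limma and 0 had an unadjusted p below 0.05 (all genes 0% and 2.96%). The differences lay between −0.12 and 0.11 with a median of 0.02, and the smallest unadjusted p was 0.124. These values depend on the direction of HOE_APP, which is likely only. Taken in the opposite direction for HOE_APP, the differences lay between −0.27 and 0.15 with a median of 0.03, and again 0 of 38 genes passed the adjusted threshold (all genes 0%). Then 2 genes, Rfx3 and Mcidas, were below 0.05 before adjustment, where 7.35% of all genes were. Their differences were −0.17 (SE 0.07) and −0.27 (SE 0.12), with adjusted p-values of 0.628 and 0.63 in limma. Both drug comparisons share the untreated APP_WT condition with each other and with the comparison with WT.

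On single arrays of the treated neurospheres many of the 38 genes lay on the same side of 0. In BK_APP the median log2 ratio was −0.07, 0.10, 0.01 and 0.06 on arrays 1 to 4, with 12, 26, 21 and 28 of the 38 genes above 0. In HOE_APP it was −0.14, 0.14, 0.06 and −0.07, with 6, 29, 27 and 12 genes above 0, where array 4 held 37 genes. The medians of all genes on these 8 arrays lay between −0.01 and 0.02. Array 1 was low and array 2 high for both drugs, and array 4 was above 0 for BK_APP and below 0 for HOE_APP. Arrays 1 and 2 shared their dye orientation, so this contrast between them is not one between dyes. In APP_WT versus WT, which also holds untreated APP_WT, the median was highest on array 1 (0.83) and lowest on array 2 (0.59). Whether arrays of one number share an APP_WT sample is not given in the sources used here. For Meig1 the HOE_APP ratios were −0.23, 0.27, 0.18 and −0.27, and for Dnaic2 they were −0.32, 0.36, 0.19 and −0.07. The SD over arrays of Meig1 (0.28) and of Dnaic2 (0.29) was larger in size than the largest mean change of any of the 38 genes with either drug, that of Mcidas with HOE-140 (−0.16).

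**Figure D5:**
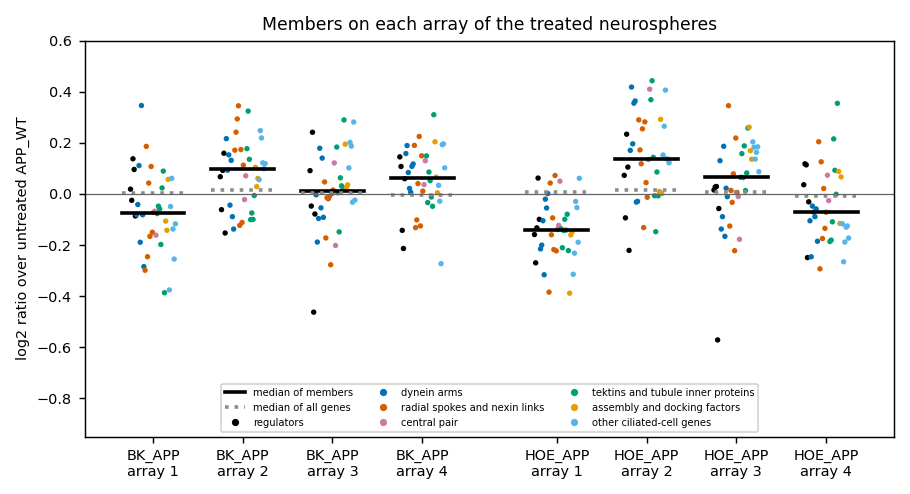
Log2 ratio over untreated APP_WT of the expressed motile cilia genes (points, colored by class) on each of the 8 arrays of treated neurospheres, with the median of the genes (black bar) and of all genes (dotted grey bar). The black bar lies at −0.14 on HOE_APP array 1 and at 0.14 on array 2, and the grey bars stay near 0.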

How the data were processed

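Median intensities of spots and local backgrounds, deposited by the authors without normalization for 12 arrays as output of Feature Extraction 11.0.1.1 (per the file headers; the methods name another version), were the starting values. The authors also deposited processed intensities, a log10 ratio of these, and a table of log2 ratios whose normalization is not given in the sources used here. Its 12 columns correlated with the turned scanner ratios with r between 0.9986 and 1 and had medians between −0.155 and 0.036. The labels give 5 days in suspension and the methods 6.

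In limma 3.58.1 (R 4.3.3) the background was corrected by normexp (offset 50), arrays were normalized by loess (span 0.3), 3671 control spots of 62976 and uneven spots were left out, and spots of a probe were averaged (55681 probes). Probes above background for 1 condition on at least 3 of 4 arrays of a comparison numbered 29357. One limma model held, per comparison, 1 coefficient for the ratio and 1 for the dye (6 residual and 4.56 prior degrees of freedom). Tests were two-sided, with Benjamini-Hochberg adjustment over these probes and a threshold of 0.05. Intervals and SE come from this fit. A gene was read from its brightest expressed probe. Of 29150 probes with a RefSeq accession 27509 were named through a RefSeq table. Intensities were loess-normalized channel values, scaled between arrays by their mean log intensity (Aquantile). SAM and rank products, named in the methods, were programmed anew. The scripts were tested on simulated data.

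BK_APP and HOE_APP samples of the same number deviated together (r = 0.675, 0.559, 0.673 and 0.516 for numbers 1 to 4). Once the dye effect was removed, r was 0.423 and 0.432 for the pairs of dye orientation. Samples of APP_WT versus WT deviated the other way (r from −0.301 to −0.588 with BK_APP and from −0.383 to −0.601 with HOE_APP). Their dye orientation, as assigned here, was opposite to that of the drug arrays at each number. With the dye effect removed, r was −0.206 and −0.507 with BK_APP and −0.239 and −0.442 with HOE_APP. These correlations come from the data, not the labels, and untreated APP_WT samples may be shared between arrays of one number. The number was taken as a pairing only in the alternative fit with a replicate block. The main model left it out, so its test of BK_APP minus HOE_APP took these arrays as independent. Arrays of one comparison correlated between 0.244 and 0.61 in APP_WT versus WT, and down to −0.323 and −0.32 in BK_APP and HOE_APP, where negative values lay between opposite dye orientations.

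The genes, classes and lists were chosen with earlier results of these data known. Named with their values were the 5 regulators, the 2 largest called changes of each class in APP_WT versus WT, and the 3 largest called changes of each further list. The other members are given by value, range or count. The alternatives tried were processed signals, no background correction, median centering, no or a stricter filter, the deposited table, single comparisons without a dye term, SAM with rank products, the mean of a gene's probes, a replicate block, each array left out, and HOE_APP with the sign turned.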

Additional observations from a re-analysis of the deposited data

Results flagged for a closer look

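In 10 of 116 sets of 4 arrays (38 genes and their median in 3 comparisons, without Rsph9 in HOE_APP, which had 3 arrays), 1 array lay apart from the other 3 by a gap that, as a share of the range, exceeded Dixon's critical value at 95%, and chance alone marks about 1 set in 20. In APP_WT versus WT array 2 was low for Ccdc153 (1.46, others 1.93 to 2.00) and for Enkur (1.02, others 1.49 to 1.52). Array 1 was high for Ccdc39 (1.05, others 0.30 to 0.42) and for Stk33 (0.74, others 0.36 to 0.41). In BK_APP array 2 was high for Nme5 (0.35, others −0.02 to 0.04) and for Fam183b (0.32, others −0.05 to 0.00). Array 1 of BK_APP was low for Enkur (−0.077, others 0.15 to 0.18) and for Tmem212 (−0.38, others 0.03 to 0.10). In HOE_APP array 2 was high for Dnah6 (0.42, others −0.25 to −0.14), and array 4 was low for Dnah11 (−0.19, others −0.03 to 0.00). The difference between the effects of the drugs passed the test for 0 of the 38 genes, with 0 at an unadjusted p below 0.05 in limma.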

How the results depend on the processing

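The count of genes higher in APP_WT than in WT was 33 and stayed between 31 and 33 when 1 of the 12 arrays was left out in turn, and the calls that were lost were those of Rfx2 and Dnah11, while Rsph9 had no value without array 3 of HOE_APP. The median of 0.71 ranged from 0.63 to 0.79 without 1 array. It rose to 0.96 with the processed signals of the scanner software and to 0.96 with the deposited table. With no background correction, and with the replicate block, 1 gene was called lower in APP_WT. This was Dnaaf1, whose probe was below background in both conditions. The replicate block also called Hydin (adjusted p = 0.0141), left the counts of BK_APP, HOE_APP and of their difference at 0, and changed no other call of a member. Those 3 counts were 0 under every alternative that gave them, and the medians without 1 array ranged from −0.02 to 0.05 in BK_APP, from −0.07 to 0.08 in HOE_APP and from −0.04 to 0.08 in their difference. Rfx2 was not called with processed signals (adjusted p = 0.113), with no filter on dim probes (0.056), with the deposited table (0.0962), without the dye term (0.0997) or by SAM and rank products, beside an adjusted p of 0.0269, and Dnah11 was not called without the dye term (0.178) or by SAM and rank products. Signs turned for Rfx3, Mcidas, Tekt2 and Foxj1, all near 0. Rfx3 in APP_WT versus WT was 0.014 with no background correction, 0.0060 as the mean of its probes, and −0.031 to 0.029 without 1 array. Mcidas was −0.034 with median centering and −0.0026 to 0.27 without 1 array. Tekt2 was −0.16 to 0.10 without 1 array. Foxj1 in HOE_APP was 0.115 with median centering and −0.067 to 0.049 without 1 array. None of these values passed the test, and the cause was not tested. A slide or scan date block was not run, since each slide held whole comparisons. SAM with rank products, and the fit of each comparison alone, gave no value for the difference between the drugs. With processed signals the log2 fold changes of Tmem212 (3.14), Ak7 (1.48), Ak8 (1.25), Dnah5 (2.15-fold in place of 1.53-fold) and Dnah11 (0.44) moved by over 1.5 times, and the deposited table moved the same ones except Ak7, which had no value there. Dim probes such as Ak7, Dnaaf1 and Tmem212 are limited by background.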
